A study of Mus musculus with 6 samples.

Results

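The 41 genes described here encode the chaperones, translocation machinery and stress response of the endoplasmic reticulum (ER). They were chosen by gene symbol and known role from the 23366 symbols of the expression table, and all 41 were found and passed the filter on low values. RNA-seq was carried out on epithelial cells isolated from the submandibular salivary gland of adult mice aged 12 weeks, with 3 libraries from p63 knockout mice and 3 from p63 wild-type mice. The p63 protein, the product of Trp63, controls transcription in the basal layer of epithelia. The sources used here do not say how or in which cells Trp63 was deleted, nor the strain or the number of mice per library. Values are TPM, a transcript abundance corrected for gene length and scaled to a fixed total per library, so the sequencing depth behind each value is unknown.

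Secretory cells make their products on ribosomes docked at the ER. The nascent chain passes through the Sec61 channel, its signal peptide is cut off, sugars are added, and chaperones and disulphide isomerases fold it. Chains that fail to fold are sent back to the cytosol for degradation. When unfolded chains build up, the sensors IRE1 (Ern1), ATF6 and PERK start the unfolded protein response, in which IRE1 splices the mRNA of Xbp1 and the resulting factor, with ATF6, induces chaperone and degradation genes. In the submandibular gland, acinar cells and the granular convoluted tubule both carry a heavy secretory load.

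Knockout library 3 stood apart from the others. It had 10634 genes at 1 TPM or more against 11129 to 11235 in the other 5 libraries, and its 50 most abundant genes took 80.3% of the TPM against 69.2% to 75.9%. Against the wild-type mean, the median log2 difference over all 11268 genes tested was 0.27, 0.24 and -0.29 in knockout libraries 1, 2 and 3. Results are therefore given with and without that library. Trp63 measured 1.59, 0.816 and 1.76 TPM in knockout libraries 1, 2 and 3 and 3.48, 1.85 and 3.68 TPM in wild-type libraries 1, 2 and 3. In TPM as deposited its groups did not overlap, by the small margin of 1.76 against 1.85 TPM. Trp63 did not pass limma's test over all genes (log2 fold change -0.74, SE 0.27, adjusted p = 0.27). Which exons were deleted is not stated, so the level of the whole gene is a limited check of the labels.

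Of the 41 members, 31 had lower and 10 had higher fitted levels in the knockout, where 42.6% and 57.4% of all genes tested did. Without knockout library 1 the split was 36 lower and 5 higher, against 51.3% and 48.7% of all genes. With limma and Benjamini-Hochberg adjustment over all genes (threshold 0.05), 0 members passed, against 0.319% of all genes as lower and 0.071% as higher. For 18 members every knockout library lay below every wild-type library, a pattern seen in 15.6% of all genes tested, and for 1 member, Xbp1, every knockout library lay above, as in 5.42% of all genes. These counts are of TPM as deposited. After median-of-ratios scaling, which sets the typical gene to the same level in every library, 4 members (9.76%) were apart as lower, against 13.9% of all genes, and after quantile normalization 4 (9.76%), against 14.5%. Where a gene is called apart below, this refers to TPM as deposited. At an unadjusted p under 0.05 in limma there were 18 lower members (43.9%) and 1 higher member (2.44%), against 10.5% and 4.99% of all genes. The lower count fell to 9 (22%) after median-of-ratios scaling, against 11.6% of all genes, and to 9 after quantile normalization, against 12.2%. The higher count stayed at 1 in both, against 11.8% and 10.6%. The median log2 fold change was -0.49 over the members and 0.09 over all genes tested. Without knockout library 3, 19 members passed as lower (46.3% of the 41) and 5 as higher (12.2%), where 11.7% of all genes passed as lower and 33.8% as higher. The lower members were chaperones, disulphide isomerases and subunits of the translocon and its enzymes, and the higher members were Xbp1, Ern1, Herpud1, Sel1l and Syvn1, of the stress sensor and degradation arms. In that comparison 22 members had groups apart as lower and 5 as higher, against 19.8% and 47.3% of all genes. When limma gave libraries that fit the model less well a lower weight (array weights), 22 members passed as lower and 5 as higher. Of all genes, 11.9% and 30.9% did. In both analyses 19 members passed as lower, but the analyses use the same libraries, so the overlap is not separate support. The log2 fold change of Calr was -1.05 in the main analysis, -1.47 without knockout library 3 and -1.52 with array weights.

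**Figure D1:**
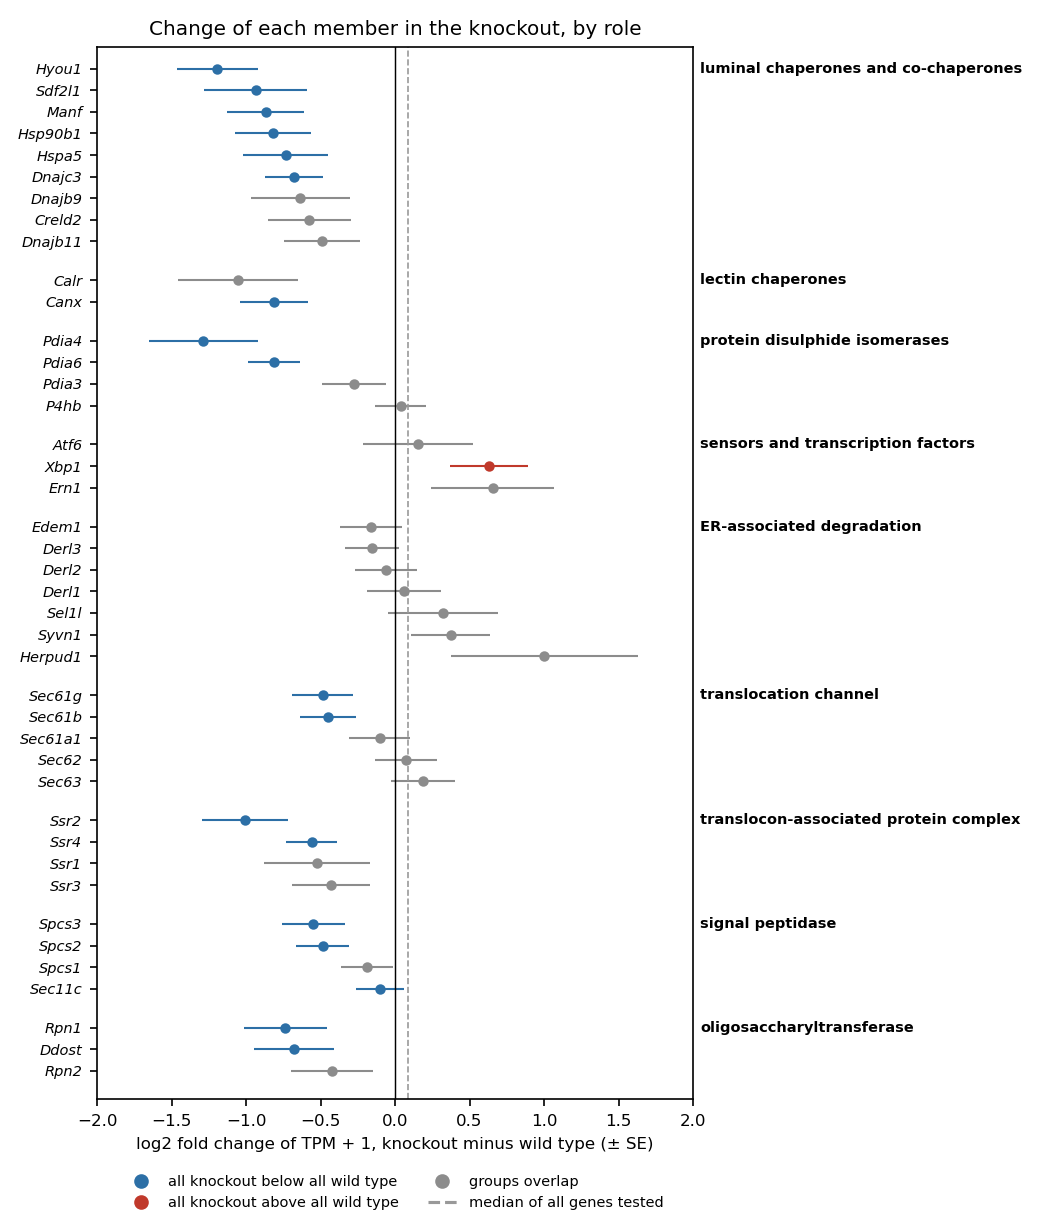
Log2 fold change of each of the 41 members (x axis, log2 of TPM + 1, knockout minus wild type; bars are the SE of limma's fit, 3 libraries against 3), ordered by role. Blue marks the 18 members with every knockout library below every wild-type library, red marks Xbp1 with every knockout library above, grey marks overlap, and the dashed line is the median over all genes tested at 0.09. Luminal chaperones lie left of 0 and the sensors right of it.

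A sequence shared by many promoters of this pathway is the ER stress element (ERSE), at which the factors NF-Y and ATF6 or XBP1 bind. Searched on both strands as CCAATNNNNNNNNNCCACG, it was present in the promoters of 9 of the 33 members with an entry in the RefSeq promoter table (build GRCm38.p6, 250 bases before to 50 after the start of the gene). It was found in 0.119% of all 32851 promoters of that length. Of the tested genes with a promoter entry 15 held it, and 9 of these 15 are members. The sites are shown because their owners include both chaperones with lower levels and Syvn1, with a positive fold change. Capitals mark the fixed letters of the element, read 5′ to 3′ on the strand of the gene, so that a match on the opposite strand begins with CGTGG. The whole promoter is given for Hspa5, and the site with 12 bases on each side for the others.
Hspa5 (chr2:34771840-34772139, plus strand): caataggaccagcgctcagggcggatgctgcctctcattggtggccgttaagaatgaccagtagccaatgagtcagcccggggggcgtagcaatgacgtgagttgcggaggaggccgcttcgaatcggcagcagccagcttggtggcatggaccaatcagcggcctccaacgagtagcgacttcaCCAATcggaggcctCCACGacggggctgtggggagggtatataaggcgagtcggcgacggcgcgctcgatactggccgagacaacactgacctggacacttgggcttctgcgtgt
Hsp90b1 (chr10:86705626-86705668, minus strand): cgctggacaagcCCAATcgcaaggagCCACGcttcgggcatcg
Hsp90b1 (chr10:86705521-86705563, minus strand): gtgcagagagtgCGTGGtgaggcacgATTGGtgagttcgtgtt
Calr (chr8:84847063-84847105, minus strand): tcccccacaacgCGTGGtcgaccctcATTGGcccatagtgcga
Canx (chr11:50325788-50325830, minus strand): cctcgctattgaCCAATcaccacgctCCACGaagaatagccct
Creld2 (chr15:88819508-88819550, plus strand): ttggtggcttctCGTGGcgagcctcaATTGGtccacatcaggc
Dnajc3 (chr14:118937815-118937857, plus strand): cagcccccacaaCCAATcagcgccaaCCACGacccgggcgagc
Pdia6 (chr12:17266479-17266521, plus strand): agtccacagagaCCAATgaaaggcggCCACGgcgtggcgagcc
Derl3 (chr10:75893230-75893272, plus strand): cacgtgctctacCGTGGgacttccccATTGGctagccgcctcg
Syvn1 (chr19:6046520-6046562, plus strand): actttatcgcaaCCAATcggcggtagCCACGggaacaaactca
The 9 owners of an ERSE had log2 fold changes from -1.05 (Calr) to 0.37 (Syvn1) with a median of -0.73, and 8 of the 9 were negative. The 24 other members with a promoter entry had a median of -0.43, with 17 negative. The related element ERSE-II, searched on both strands as ATTGG, any base and CCACG, was in 0.0365% of all promoters and in those of 2 members, both printed below in the same way.
Herpud1 (chr8:94386365-94386399, plus strand): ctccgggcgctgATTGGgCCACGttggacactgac
Dnajb11 (chr16:22857840-22857874, plus strand): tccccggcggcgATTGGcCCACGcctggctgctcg
Herpud1 and Dnajb11, the owners of ERSE-II, lay on opposite sides of 0, at 1.00 and -0.49. A match of letters is a description and does not show that a factor binds there. Atf6, Derl1, Hyou1, Manf, Sec11c, Sec61a1, Spcs3 and Ssr2 had no entry.

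All 9 luminal chaperones and co-chaperones had negative fold changes, and the groups were apart for 6 of them. Hspa5 encodes BiP, the main Hsp70 of the ER lumen. It measured 296, 183 and 391 TPM in knockout libraries 1, 2 and 3 and 434, 439.8 and 512 TPM in wild-type libraries 1, 2 and 3. Every knockout library was below every wild-type library, with knockout library 3 the closest (log2 fold change -0.73, SE 0.29, adjusted p = 0.29). Hsp90b1 encodes GRP94, the Hsp90 of the ER. Its knockout values were 192, 131 and 242 TPM against 303, 299 and 369.5 TPM, in the same order as those of Hspa5 among the knockout libraries (log2 fold change -0.82, SE 0.26, adjusted p = 0.21). Hyou1, a large Hsp70-like protein that exchanges nucleotide on BiP, stood at 39.9, 26.6 and 53.5 TPM against 95.0, 91.6 and 81.8 TPM. It had the lowest fold change of this role (-1.19, SE 0.27, adjusted p = 0.098), and its level over that of Hspa5 in the same library was 0.135, 0.146 and 0.137 in the knockout and 0.219, 0.208 and 0.160 in wild type. A ratio within a library does not depend on how the library was scaled, and these ratios, like all those given here, were chosen after the values were seen.

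Among the co-chaperones, Dnajc3, which encodes the BiP partner P58IPK, measured 75.2, 67.2 and 87.9 TPM in the knockout and 120.2, 113 and 136 TPM in wild type. The groups were apart (log2 fold change -0.68, SE 0.19, adjusted p = 0.16). Sdf2l1, a lumenal partner of ERdj3, stood at 16.6, 33.6 and 42.6 TPM against 57.1, 48.3 and 64.2 TPM, and here knockout library 1 was the lowest. Manf, a small secreted stress protein that binds BiP, stood at 60.9, 48.1 and 90.8 TPM against 125, 108 and 123 TPM. Their log2 fold changes were -0.94 (SE 0.34, adjusted p = 0.26) and -0.87 (SE 0.26, adjusted p = 0.18). The other 3 members overlapped between groups. These were Dnajb9 (ERdj4, -0.64), Dnajb11 (ERdj3, -0.49) and the disulphide isomerase-like Creld2 (-0.57), for which knockout library 3 at 68.9 TPM lay within the wild-type range of 61.1 to 76.4 TPM.

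**Figure D2:**
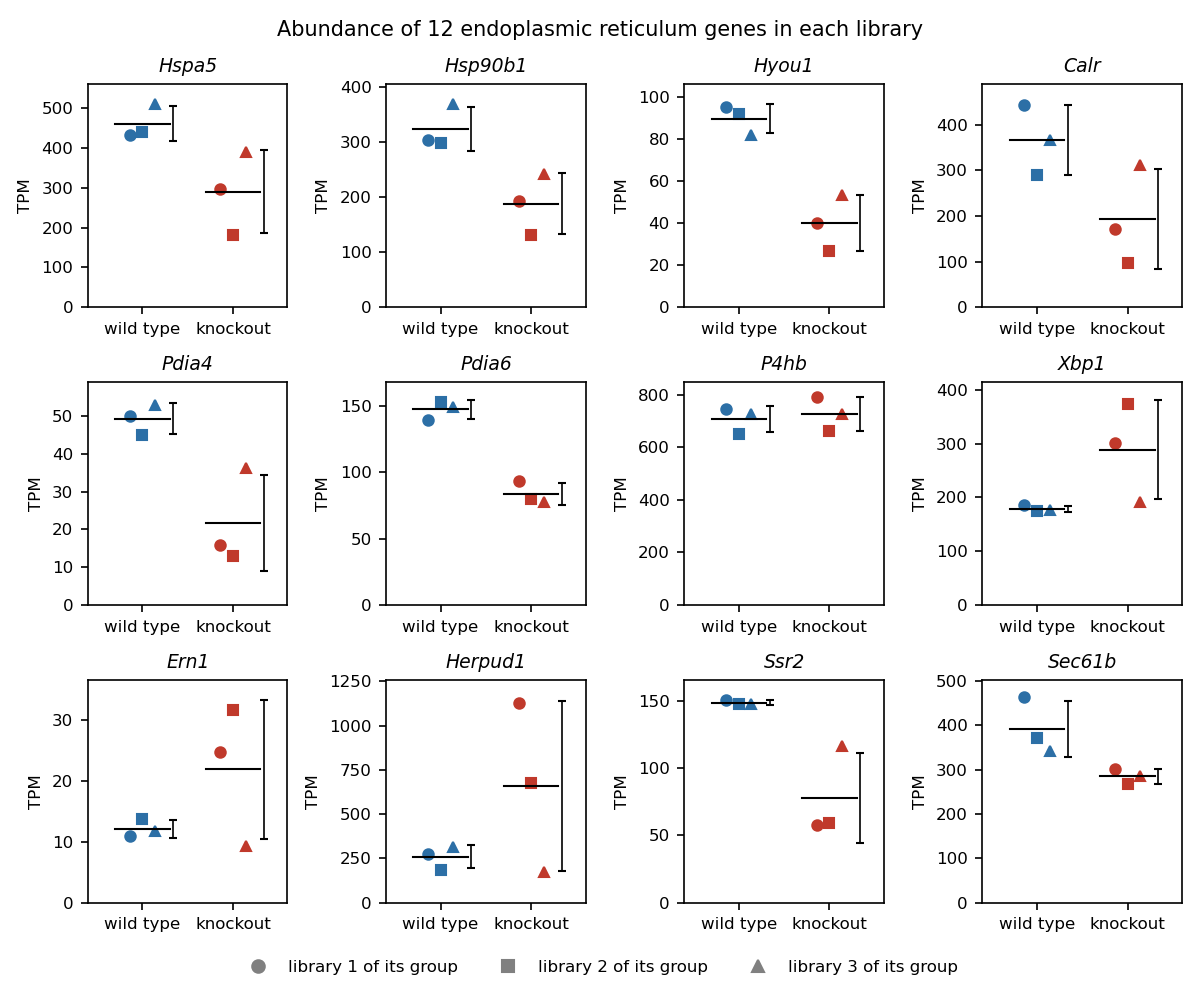
TPM (y axis, from 0) of 12 members in each wild-type library (blue) and knockout library (red); the symbol gives the library within its group, the horizontal line the mean, and the bar beside it the SD (n = 3). Knockout library 3 (triangle) lies nearest to wild type for Hspa5, Hsp90b1, Hyou1, Calr, Pdia4, Xbp1 and Ssr2, and among or below the wild-type libraries for Ern1 and Herpud1, while Pdia6 is at 78.0 to 93.2 TPM in all 3 knockout libraries and P4hb overlaps.

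The lectin chaperones hold newly made glycoproteins by their sugars. Canx, the membrane-bound calnexin, measured 50.2, 36.6 and 61.9 TPM in the knockout and 86.3, 82.6 and 89.0 TPM in wild type (log2 fold change -0.81, SE 0.23, adjusted p = 0.16). Its groups were apart. Calr, the soluble calreticulin, measured 172, 97.4 and 312 TPM against 443, 290.4 and 366 TPM. Knockout library 3 exceeded wild-type library 2, so the groups overlapped despite a larger mean difference (log2 fold change -1.05, SE 0.40, adjusted p = 0.28).

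The 4 disulphide isomerases differed among themselves. Pdia4 (ERp72) had the lowest fold change of all 41 members. It measured 15.8, 12.9 and 36.2 TPM in the knockout and 49.9, 45 and 53.0 TPM in wild type (log2 fold change -1.29, SE 0.36, adjusted p = 0.16). Pdia6 (P5) had the smallest adjusted p of all members, at 93.2, 80.2 and 78.0 TPM against 139.8, 153 and 149.8 TPM (log2 fold change -0.81, SE 0.18, adjusted p = 0.092). Pdia6, Sec61b and Sec11c were the 3 of the 18 members with groups apart as lower in which knockout library 3 was not the closest to wild type. Pdia3 (ERp57), the isomerase that works with calnexin and calreticulin, overlapped at -0.28 (SE 0.22, adjusted p = 0.51). P4hb, the classical isomerase PDI and a subunit of collagen prolyl hydroxylase, was the most abundant member. It stood at 792, 663 and 727 TPM in the knockout and 746, 650.3 and 728 TPM in wild type (log2 fold change 0.04, SE 0.17, adjusted p = 0.92; it lay between -0.23 and 0.10 over the alternatives, with either sign). The ratio of Pdia4 to P4hb was 0.0199, 0.0195 and 0.0498 in the knockout libraries and 0.0668, 0.0692 and 0.0728 in the wild-type libraries, so in knockout library 3 too the ratio was below the wild-type range.

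The 3 sensors and transcription factors had positive fold changes, that of Atf6 not under every alternative. Xbp1, the factor made active by IRE1, measured 302, 373 and 191 TPM in the knockout and 185, 175 and 177 TPM in wild type. All knockout libraries were above all wild-type libraries, library 3 by a small margin (log2 fold change 0.63, SE 0.26, adjusted p = 0.31). TPM per gene does not separate spliced from unspliced Xbp1 mRNA. Ern1, encoding IRE1, was at 24.8, 31.6 and 9.38 TPM against 11.0, 13.7 and 11.8 TPM. These were above wild type in knockout libraries 1 and 2 and below it in library 3 (log2 fold change 0.65, SE 0.42, adjusted p = 0.44). After median-of-ratios scaling, Ern1 in knockout library 3 was at 12.4, within the wild-type values of 11.0, 14.4 and 11.8. Atf6 was at 40.6, 23.6 and 13.8 TPM against 19.5, 25.3 and 19.5 TPM (log2 fold change 0.15, SE 0.37, adjusted p = 0.84), with no common order among the libraries. Over the alternatives its fold change lay between -0.22 and 0.52.

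The ratio of Xbp1 to Hspa5 within a library was 1.02, 2.04 and 0.489 in the knockout and 0.427, 0.398 and 0.346 in wild type. All 3 knockout libraries were above all 3 wild-type libraries. Knockout library 2 had the highest ratio and knockout library 3 the lowest of the knockout ratios.

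**Figure D3:**
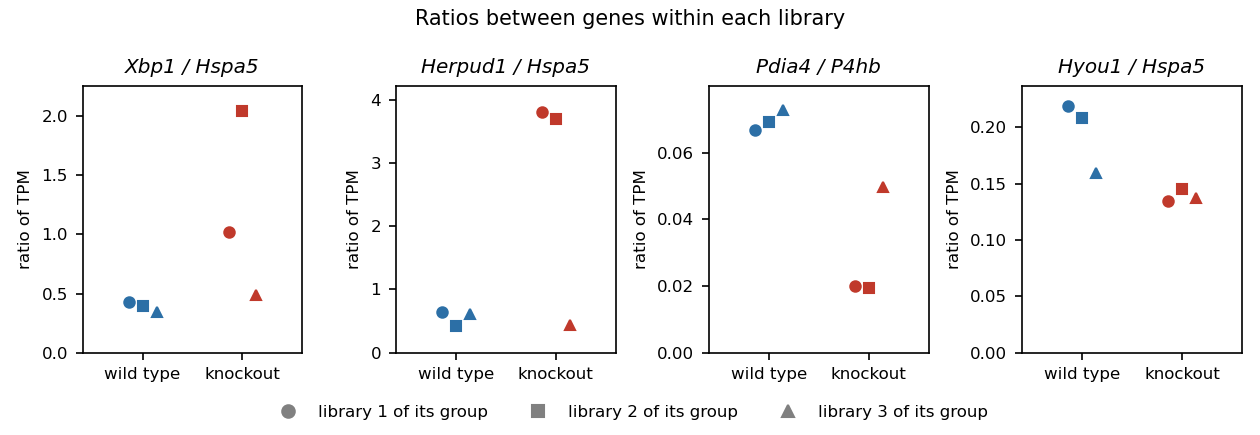
Ratio of the TPM of a pair of genes within each library (y axes, from 0), with wild type in blue and knockout in red and a symbol for each library of a group. Xbp1 over Hspa5 is higher in all knockout libraries, Herpud1 over Hspa5 in libraries 1 and 2 (3.81 and 3.70) but not in library 3 (0.443), and Pdia4 over P4hb and Hyou1 over Hspa5 are lower in all 3.

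ER-associated degradation (ERAD) was mixed, and none of its 7 members had groups apart. Herpud1, a membrane protein that brings ERAD components together, spanned the widest range of all members. It measured 1129, 675 and 173 TPM in knockout libraries 1, 2 and 3 and 278, 187 and 314 TPM in wild type. Knockout libraries 1 and 2 were above every wild-type library, and library 3 was below every one (log2 fold change 1.00, SE 0.63, adjusted p = 0.44). The 2 genes of the ubiquitin ligase complex were placed likewise against wild type, though not in the same order among the knockout libraries for Syvn1. Sel1l, its scaffold, was at 189.6, 125 and 64.3 TPM against 91.8, 85.1 and 99.3 TPM, and Syvn1, the ligase HRD1, was at 33.5, 34.4 and 19.2 TPM against 21.6, 20.2 and 22.7 TPM. For each, in TPM as deposited, knockout libraries 1 and 2 were above wild type and library 3 below it (log2 fold changes 0.32 and 0.37, adjusted p = 0.64 and 0.47). After median-of-ratios scaling, knockout library 3 was at 228 for Herpud1, within the wild-type values of 279, 196 and 316. For Syvn1 it was then above wild type (25.3 against 21.7, 21.1 and 22.9). For Sel1l it was still below wild type (84.6 against 92.0, 89.2 and 99.9). Over the alternatives the fold change of Sel1l lay between -0.14 and 0.74. The other 4, the mannosidase-like Edem1 and the channel proteins Derl1, Derl2 and Derl3, had log2 fold changes from -0.16 to 0.06 and overlapped.

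Among the 5 genes of the translocation channel, only the small subunits had groups apart in TPM as deposited. Sec61b measured 302, 268 and 286 TPM in the knockout and 464, 372 and 342 TPM in wild type, and Sec61g measured 137, 129 and 180.3 TPM against 231, 198 and 191 TPM. For both, the groups were apart (log2 fold changes -0.45 and -0.49, SE 0.19 and 0.20, adjusted p = 0.32 and 0.31). Sec61a1, which forms the pore, overlapped at 182, 143 and 122 TPM against 169, 151 and 154 TPM (-0.10, SE 0.21, adjusted p = 0.80, between -0.26 and 0.03 over the alternatives), as did Sec62 (0.07) and Sec63 (0.19), which assist post-translational entry and BiP recruitment. The ratio of Sec61b to Sec61a1 was 1.66, 1.88 and 2.35 in the knockout and 2.74, 2.47 and 2.22 in wild type, with knockout library 3 inside the wild-type range. After median-of-ratios scaling, both small subunits overlapped between groups. Knockout library 3 was then at 376 for Sec61b (wild type 465, 389 and 344) and 237 for Sec61g (232, 208 and 193). After rescaling without the 50 most abundant genes, Sec61a1 was apart as lower, while Sec61b and Sec61g were not.

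The translocon-associated protein complex (Ssr1 to Ssr4), which helps some signal peptides to insert, had 4 negative fold changes. Ssr2 was the lowest, at 57.5, 59.0 and 116 TPM in the knockout and 150.5, 147 and 147 TPM in wild type. All knockout libraries were below the wild-type libraries, and library 3 was the closest (log2 fold change -1.01, SE 0.29, adjusted p = 0.16). Ssr4 was apart as well, at 197, 217 and 231 TPM against 311, 341 and 299.7 TPM (-0.56, SE 0.17, adjusted p = 0.19). Ssr1 (-0.52) and Ssr3 (-0.43) overlapped.

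Signal peptidase cuts the signal peptide from the chain. The groups were apart for Spcs2, at 73.4, 70.2 and 88.0 TPM against 106, 106 and 112 TPM, and for Spcs3, at 34.3, 33.4 and 46.5 TPM against 61.9, 50.2 and 55.1 TPM (log2 fold changes -0.49 and -0.55, SE 0.18 and 0.21, adjusted p = 0.27 and 0.29). Sec11c, a catalytic subunit and the most abundant gene of the complex, was apart by a small margin, at 309.9, 292 and 301 TPM against 330.3, 312 and 327 TPM (-0.10, SE 0.16, adjusted p = 0.74). Spcs1 overlapped at -0.19. Of the oligosaccharyltransferase, which adds the N-linked sugar, Rpn1 was at 52.9, 33.2 and 69.2 TPM against 85.8, 80.2 and 84.0 TPM and Ddost at 71.4, 44.8 and 77.4 TPM against 125, 85.3 and 97.0 TPM. Both were apart (log2 fold changes -0.74 and -0.68, SE 0.28 and 0.27, adjusted p = 0.27 and 0.29). Rpn2, the most abundant of the 3, overlapped at 124, 71.2 and 106 TPM against 165, 104 and 133 TPM (-0.42, SE 0.27, adjusted p = 0.45).

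Summed over the 41 members, the TPM came to 6037, 4828 and 5135 in knockout libraries 1, 2 and 3 and to 6525, 5735 and 6415 in wild-type libraries 1, 2 and 3, so the totals overlapped. The luminal chaperones alone summed to 795, 569.9 and 1055 TPM against 1297, 1244 and 1481 TPM, and the ERAD genes to 1571, 1064 and 442 TPM against 629.7, 508 and 664 TPM. In TPM as deposited, the chaperone sums were apart between the groups. The ERAD sum was above wild type in knockout libraries 1 and 2 and below it in library 3. Herpud1 made up 1129, 675 and 173 TPM of the knockout ERAD sums. After median-of-ratios scaling, the median log2 difference from the wild-type mean in knockout library 3 was -0.01 for the luminal chaperones and 0.09 for ERAD.

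By TPM as deposited, 25, 27 and 30 of the 41 members were below all wild-type libraries in knockout libraries 1, 2 and 3, while 26.7%, 27.9% and 66.9% of all genes tested were. Median-of-ratios scaling divides each library by the typical ratio of its genes to the other libraries, here 1.19, 1.17 and 0.760 for the knockout and 0.954 to 0.998 for wild type. After it, 32, 35 and 6 members were below all wild-type libraries, against 39.3%, 39.1% and 31.7% of all genes. Hspa5 then stood at 248, 156 and 515 in the knockout and 435, 461 and 515 in wild type, in scaled TPM. The number of members with every knockout library below wild type was 4 after this scaling (13.9% of all genes), namely Canx, Dnajc3, Hyou1 and Pdia6, in place of 18, and Xbp1 and Syvn1 were the 2 above (14.8% of all genes). The split over all genes was 1666 higher and 1566 lower after this scaling and 611 higher and 1762 lower as deposited. Quantile normalization gave 4 members lower and 2 higher (14.5% and 13.4% of all genes), and rescaling without the 50 most abundant genes 6 and 2 (15.3% and 12% of all genes). In knockout libraries 1 and 2 the median of the luminal chaperones against the wild-type mean was -0.74 and -1.27 as deposited and -1.03 and -1.51 after scaling, while that of knockout library 3 was -0.38 as deposited and -0.01 after scaling.

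**Figure D4:**
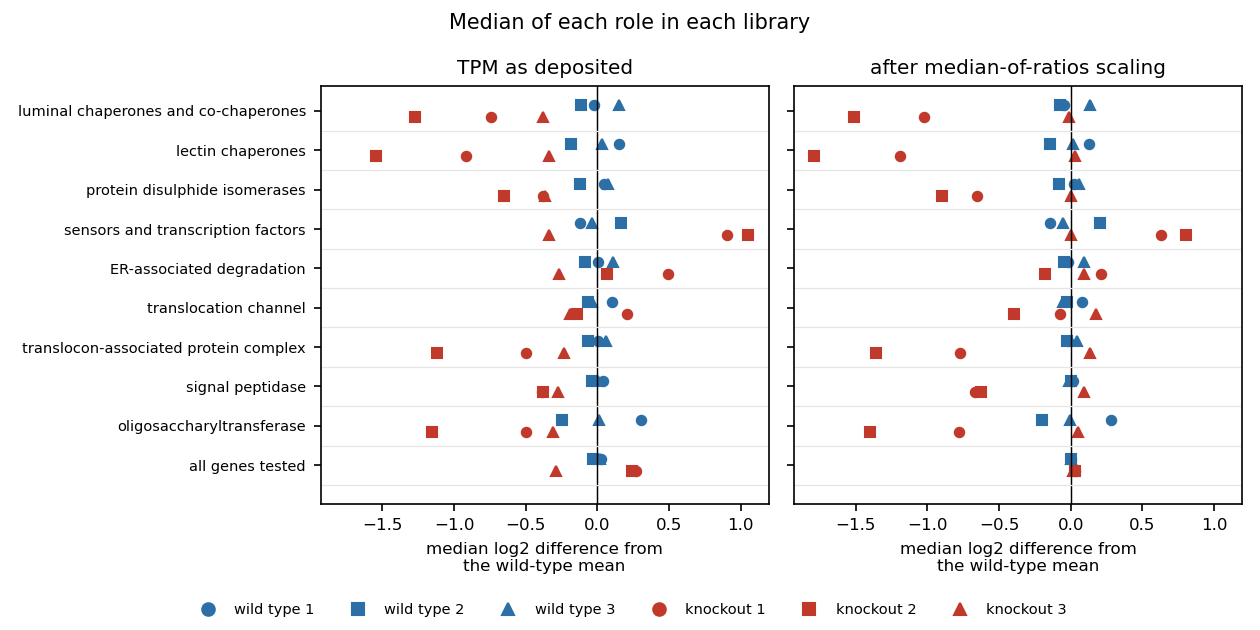
Median log2 difference from the wild-type mean (x axis) of each role of the 41 members and of all genes tested, in each library, for TPM as deposited (left) and after median-of-ratios scaling (right). Knockout libraries 1 and 2 (red circle and square) lie left of wild type for the chaperones, the translocon-associated complex, signal peptidase and the oligosaccharyltransferase and right of it for the sensors under both scalings, while knockout library 3 (red triangle) is left of 0 in the left panel and at -0.01 for the luminal chaperones and 0.14 for the translocon-associated complex in the right panel.

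Without knockout library 3, the largest falls among the members that passed were those of Pdia4 (log2 fold change -1.71, SE 0.15, adjusted p = 0.00054), Calr (-1.47, SE 0.28, adjusted p = 0.0058), Hyou1 (-1.43, SE 0.19, adjusted p = 0.0017) and Ssr2 (-1.33, SE 0.12, adjusted p = 0.00063). Hspa5 passed at -0.98 (SE 0.22, adjusted p = 0.012). The 5 that passed as higher were Herpud1 (1.78, SE 0.29, adjusted p = 0.0036), Ern1 (1.15, SE 0.17, adjusted p = 0.0022), Xbp1 (0.90, SE 0.15, adjusted p = 0.0037), Sel1l (0.74, adjusted p = 0.021) and Syvn1 (0.64, adjusted p = 0.0074). Each of these genes passed in 3 of 15 alternatives, except Sel1l with 2, and over the alternatives the adjusted p of these genes ran from 0.0004 (Pdia4) to 1.0. The alternatives in which these genes passed were array weights and fits that leave out knockout library 3. Median-of-ratios scaling together with leaving out knockout library 3 was added after seeing the data. It gave 23 members that passed as lower and 4 as higher, against 19.1% and 22.1% of all genes. Groups were apart for 32 members as lower and 5 as higher, against 30.5% and 34.2%.

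Other genes of the pathway were taken from 4 lists. Of the 63 tested, 0 passed with limma after adjustment over all genes, and 11 were lower and 2 higher at an unadjusted p under 0.05. Over all genes tested, as given above, 42.6% had negative and 57.4% positive fold changes and 15.6% had groups apart as lower. In folding and glycoprotein quality control, 16 of 17 had negative fold changes and 8 had groups apart as lower, with a median of -0.39. Pdia5, another disulphide isomerase, was the lowest at 2.37, 2.73 and 7.62 TPM in the knockout and 14.9, 12.7 and 13.3 TPM in wild type (log2 fold change -1.62, SE 0.37, adjusted p = 0.099). In translocation and N-glycosylation, 12 of 17 were negative and 6 apart as lower (median -0.28). Ostc, an oligosaccharyltransferase subunit, led at 38.1, 22.7 and 72.9 TPM against 104, 82.4 and 103 TPM (-1.25, SE 0.39, adjusted p = 0.21).

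In ERAD beyond the members, 9 of 13 were positive (median 0.17). Edem3, which trims mannose from misfolded glycoproteins, was at 78.4, 94.6 and 30.6 TPM in the knockout and 24.4, 23.8 and 26.8 TPM in wild type, all knockout libraries above (1.26, SE 0.40, adjusted p = 0.21). Among the other stress branches and regulators, 11 of 16 were positive (median 0.30). Trib3, a pseudokinase induced by the PERK and amino acid response factor ATF4, measured 95.3, 78.4 and 2.22 TPM in the knockout and 2.94, 3.36 and 4.76 TPM in wild type. Knockout libraries 1 and 2 were above every wild-type library, and library 3 was below all of them (log2 fold change 2.65, SE 1.18, adjusted p = 0.34). Without knockout library 3 these 4 genes passed, Trib3 at 4.24 (SE 0.20, adjusted p = 0.00017), Pdia5 at -2.04 (SE 0.15, adjusted p = 0.00033), Edem3 at 1.75 (SE 0.14, adjusted p = 0.00048) and Ostc at -1.67 (SE 0.23, adjusted p = 0.0019). Each passed in 3 of 15 alternatives, and over these the adjusted p ran up to 1.0. Without knockout library 3 the list of folding genes had 7 lower and 1 higher call, and translocation and N-glycosylation 5 and 1. ERAD had 1 and 7, and the other stress branches 1 and 9. Over all genes, 11.7% passed as lower and 33.8% as higher in that comparison.

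Marker levels of other cell types also differed between the groups. Markers of the granular convoluted tubule (9 listed, 8 tested, all 8 apart as lower, 1 passed, Egf) summed to 37998, 13532 and 34891 TPM in knockout libraries 1, 2 and 3 and to 118921 to 138445 TPM in wild type, and Egf, the best known of them, to 3843, 1450 and 2355 TPM against 11697 to 13193 TPM. The tubule sum was lowest in knockout library 2. Among the knockout libraries, 22 of the 41 members were lowest in library 2, 14 in library 3 and 5 (Sdf2l1, Creld2, Edem1, Ssr2 and Ssr4) in library 1, in TPM as deposited. This split depended on the scaling. After median-of-ratios scaling, Pdia6, Derl1, Derl2, Derl3, Sec61a1, Sec62, Sec63 and Spcs1 were no longer lowest in library 3. The same split over all genes was not computed, and whether the split is related to the tubule sum was not tested. By a different measure, as deposited, 26.7%, 27.9% and 66.9% of all genes lay below every wild-type library in knockout libraries 1, 2 and 3. Acinar markers (10 listed, 9 tested, 2 apart as higher, 0 passed) summed to 188793 to 240094 TPM in the knockout and 142283 to 156995 TPM in wild type. Most of the sum came from Prol1 and Pip, and 6 of the 9 had negative fold changes. Of these 6, Dcpp1, Dcpp2 and Dcpp3 were highest in wild-type library 1, then in knockout library 1. Dcpp2 was at 4939 and 793 TPM in these libraries, against 1.03 to 45.9 TPM elsewhere. The acinar water channel gene Aqp5, the secretory factor gene Bhlha15 and Cldn10 overlapped (log2 fold changes -0.08, -0.11 and -0.15). Basal and myoepithelial markers (5 of 5 tested, all apart as lower, 2 passed) summed to 116 to 216 TPM against 339 to 435 TPM, fibroblast markers (6 of 6 tested, 4 apart as lower, 1 passed) to 129 to 268 TPM against 277 to 355 TPM, and macrophage and leukocyte markers (6 of 6 tested, 5 apart as lower, 0 passed) to 100.5 to 199.8 TPM against 374 to 437 TPM. The markers that passed, named after their values were seen, were Krt14 (log2 fold change -1.97, adjusted p = 0.037), Cnn1 (-1.73, adjusted p = 0.035) and Col3a1 (-3.05, adjusted p = 0.044), beside Egf (-2.38, adjusted p = 0.044). Krt14 passed in 3 of 15 alternatives, Cnn1 in 4, Col3a1 in 7 and Egf in 5. General epithelial markers (6 of 6 tested, 2 apart as lower, 0 passed) summed to 709 to 1676 TPM against 964 to 1134 TPM. Krt18 alone was at 907, 1059 and 272 TPM in the knockout and 368 to 411 TPM in wild type. The markers apart as lower were Krt7 and Krt19 (log2 fold changes -0.96 and -1.61). Plasma cell markers, of a cell type with a large ER, were low throughout (8 listed, 5 under 1 TPM in every library), with sums of 12.1 to 40.6 TPM against 27.3 to 88.2 TPM. Markers of the neighbouring parotid and sublingual glands were highest in knockout library 1 (5490.3 TPM) and wild-type libraries 2 (6025 TPM) and 1 (956 TPM), against 71.7 to 479.5 TPM in the rest. Without those 3 libraries, which leaves 2 knockout libraries and 1 wild-type library, the median of the members was -0.50. This value rests on wild-type library 3 alone and carries no test. In bulk RNA, fewer cells of a type and less RNA per cell cannot be told apart, and the part of cell makeup in the levels of the ER genes was not tested.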

How the data were processed

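RNA-seq values of 6 libraries, 3 knockout and 3 wild type by genotype label, were used. The authors deposited TPM; per the labels these are read counts adjusted for the length of each gene and the size of each library, and each column sums to 1000000. Per the submitters' processing notes the build was mm9 and the tools were featureCounts 1.5.1, TopHat2 2.1.1 with Bowtie2 2.2.6, and also DESeq2 1.20.0, with no role given; the annotation and the strand setting are not given in the sources used here. TPM keeps no depth, so no counting interval was given. Because TPM are shares of a fixed total, the level of a gene also depends on that of the most abundant genes.

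The 11268 genes that reached 1 TPM in 3 or more libraries, all 41 members among them, were tested on log2(TPM + 1) with limma 3.58.1 (R 4.3.3; empirical Bayes with a mean-variance trend, two-sided, Benjamini-Hochberg over all genes tested, threshold 0.05), which was tested on simulated data. Fold changes on this scale understate those of low genes. SE refers to the fold change on the log2 scale. The labels do not say how mice were allotted to libraries, so the p-values reflect only how far these libraries vary, which may be technical. An exact permutation test of 3 against 3 libraries cannot go below p = 0.1 and was not used. No p-value was given for sums or medians over members.

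Values in every library were given for members with groups apart and, in each role, for the member with the largest fold change and the most abundant one; Atf6, Sec61a1, Sel1l and Syvn1 were added after their values were seen. In each list of other pathway genes, the one with the largest fold change was named. Members and lists were chosen with earlier results of these data known. Some listed genes were found under older symbols. Promoters came from RefSeq (GRCm38.p6). Alternatives were a pseudocount of 0.1 TPM, no filter, quantile normalization, median-of-ratios scaling, TPM rescaled after removal of the 50 most abundant genes, a block pairing libraries of adjacent index number, array weights and leaving out each library. Python 3.11.15 and matplotlib 3.10.9 drew the figures.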

Additional observations from a re-analysis of the deposited data

How the results depend on the processing

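Of the 41 members, 0 passed in the main analysis and under the pseudocount of 0.1 TPM, no filter, the 3 rescalings, the block and each fit without a library other than knockout library 3. With array weights 22 passed as lower and 5 as higher. Over the fits without 1 library, members that passed numbered 0 to 19 lower and 0 to 5 higher, those with groups apart 19 to 25 lower and 1 to 5 higher (17.2% to 21% and 6.04% to 47.3% of all genes), and all genes that passed 0 to 1318 lower and 0 to 3809 higher. Of all genes, 36 lower and 8 higher passed in the main analysis, 18 lower under the pseudocount of 0.1 TPM, 6 lower and 5 higher with no filter, 14 higher after median-of-ratios scaling, 55 lower and 17 higher after quantile normalization, and 1345 lower and 3477 higher with array weights. Members with groups apart as lower numbered 18, and 4 after median-of-ratios scaling, 4 after quantile normalization (14.5% of all genes) and 6 after rescaling without the 50 most abundant genes (15.3%); those apart as higher numbered 1, and 2 under each of these 3. Of the other pathway genes, 15 lower and 15 higher passed with array weights, and 0 to 14 lower and 0 to 18 higher over the fits without 1 library. The median of the members ran from -0.59 to -0.28 over the fits without 1 library, the latter without knockout library 2. A combination added after seeing the data, median-of-ratios scaling without knockout library 3, gave 23 lower and 4 higher members that passed, 32 lower and 5 higher with groups apart, a median of -0.85, 2152 lower and 2494 higher among all genes, and 26 lower and 8 higher among the other pathway genes. The median of the members was negative under every alternative run. The ratio of their mean summed TPM in the knockout to that in wild type was 0.857, and between 0.80 and 0.90 over the 8 alternatives for which it was computed (each library left out in turn, median-of-ratios scaling, and removal of the 50 most abundant genes). Of the 24 members covered by the naming rule, P4hb alone changed sign, to -0.02 after median-of-ratios scaling, -0.01 after quantile normalization, -0.02 after rescaling without the 50 most abundant genes, -0.03 without knockout library 1, -0.02 without wild-type library 2, -0.23 under the added combination and -0.07 without the 3 libraries richest in parotid and sublingual transcripts. Over all 41 members 8 had either sign, the others being Atf6, Sel1l, Derl1, Derl2, Sec61a1, Sec62 and Sec63. The split into lower and higher fitted levels ran from 29 and 12 without knockout library 3 to 36 and 5 without knockout library 1, and was 37 and 4 without the 3 libraries named above. The cause of these differences was not tested. TPM gives no depth, so how far counting error limits the low members is unknown.

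The labels give the groups no shared replicate numbers, so the main analysis has no pairing. A paired fit, with libraries of adjacent index number as blocks, was run as an alternative: 0 members passed, and 24 of all genes passed as lower and 7 as higher.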
